A study of Mus musculus with 55 samples.

Results

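The 10 genes described here were chosen by name. Of these, 6 are targets that act in WNT feedback (Axin2, Nkd1, Notum, Sp5, Tnfrsf19 and Apcdd1), and the others are the TCF/LEF factors Tcf7, Lef1, Tcf7l1 and Tcf7l2. All 10 are listed among the 34490 gene symbols that the counts of both sequencing batches share. The samples were livers of C57BL/6 mice with floxed alleles of Rnf43 and Znrf3, both in the mutants and in the controls. In R&Zdel mice (called mutant in the labels) both genes were deleted in adult hepatocytes, by an AAV8 virus that carries Cre under a hepatocyte promoter (TBG) or by tamoxifen given to mice with Cre-ERT2 under the albumin promoter. R&Zflox controls (called wild-type) received null virus or vehicle. The deletion is limited to cells in which these promoters work, while the RNA came from whole liver, so fewer cells of a type and less RNA per cell cannot be told apart.

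Undamaged livers were taken 1 month (1M, 4 R&Zdel and 4 R&Zflox), 3 months (3M, 2 and 5) and 7 months (7M, 5 and 5) after deletion. Livers with chronic damage (CD) were taken 4 days (2 and 2), 50 days (2 and 1) or 170 days (2 and 2) after the last of repeated CCl4 doses. Livers after partial hepatectomy (PHx) were taken at 7 days (3 and 3) and 21 days (3 and 3). All CD livers were in batch 1, and all 1M and PHx livers in batch 2. Batch 1 and the 7M livers of batch 2 used tamoxifen, and the other livers of batch 2 used the virus. The mice were male, apart from 2 R&Zdel and 2 R&Zflox mice at 1M, the R&Zdel mouse of batch 1 at 3M, 1 R&Zflox mouse of batch 1 at 7M and the third R&Zdel mouse at PHx 21d. Another 5 libraries of batch 1 carry labels that contradict each other, and they entered no comparison.

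WNT ligands stabilise β-catenin, which enters the nucleus and drives transcription from DNA-bound TCF/LEF factors. Several genes switched on in this way encode inhibitors of the pathway, so that their level is often read as a gauge of WNT signalling. In liver the pathway is strongest in the hepatocytes around the central vein. RNF43 and ZNRF3 are ubiquitin ligases that clear the WNT receptors from the cell surface. They belong to the same kind of feedback.

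The libraries held 21712781 to 37454126 counts in batch 1 and 11573883 to 31715627 in batch 2. All levels are given in CPM, the counts of a gene relative to the total of its library, scaled within each batch by edgeR's TMM factors. Without that scaling the median gene was 0.50 higher on the log2 scale in R&Zdel than in R&Zflox livers at CD 4d. The same shift was 0.19 to 0.20 at the later CD times, and at most 0.16 in size elsewhere. Albumin made up 1.59% to 9.28% of the counts in every library. Rnf43 and Znrf3 gave more counts in R&Zdel livers, with log2 fold changes of 0.26 to 2.22 for Rnf43 and 0.65 to 1.91 for Znrf3 over the 8 comparisons. The counts cover whole genes, while the deletion removes only the exons of the RING domain, so they do not check the deletion.

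Among the members that pass a filter on low counts in all comparisons, 4 of 8 were higher in R&Zdel livers in each of the 8 comparisons, which use separate libraries. These were Axin2, Notum, Sp5 and Tnfrsf19. Of the 11088 genes tested in all 8, 1.94% were higher in each. Several of these values turned sign under other settings. Some were near 0, but Tnfrsf19 at CD 50d (1.37) and Sp5 at PHx 21d (1.68) were not. Sp5 at 3M had a log2 fold change of 0.08 (SE 2.31), and values of -1.758 to 2.058 when single libraries were left out. Sp5 also reached -0.07192 at PHx 7d without 1 library and -0.4146 at PHx 21d with the replicate number as a block. At CD 50d, Tnfrsf19 came to -0.05388 and Notum to -0.04865 when the libraries with contradictory labels were placed by their characteristics. For Axin2 no setting tried turned the sign in any of the 8 comparisons. Tcf7l1 and Tcf7l2 had log2 fold changes above 0 in 1 of the 8 comparisons. Nkd1 had them in 5 and Tcf7 in 6.

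To show the sequence upstream of the start site, 3 feedback genes are given. RefSeq promoters of build GRCm38.p6, which has the coordinates of mm10, were found for 8 of the 10 members, in 14 promoters. Each runs from 250 bases before to 50 after the start. They were searched on both strands for 4 words bound by TCF/LEF factors, and 4 of the 14 held at least 1 match, each of a different gene. Of all 32851 promoters of this length, 16.9% held a match. The word CTTTGAA was in 5.14% of them, the word CTTTGAT in 3.73%, the word CTTTGTA in 3.63% and the word CTTTGTT in 5.85%. No matches overlapped. Sp5 (chr2:70474673-70474922, plus strand) and the second promoter of Tnfrsf19 (chr14:61037988-61038237, minus strand) are printed because they hold CTTTGAT and belong to the members that rose at CD 4d. Axin2 (chr11:108920099-108920348, plus strand) is printed as a member that rose and holds none of the words in this window. Each run gives the 250 bases before the start, with matches in capitals.
Sp5: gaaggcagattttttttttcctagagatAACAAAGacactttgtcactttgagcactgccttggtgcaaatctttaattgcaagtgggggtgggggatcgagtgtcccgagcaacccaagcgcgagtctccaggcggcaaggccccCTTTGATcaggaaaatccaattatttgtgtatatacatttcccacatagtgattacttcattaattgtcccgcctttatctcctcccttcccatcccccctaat
Tnfrsf19: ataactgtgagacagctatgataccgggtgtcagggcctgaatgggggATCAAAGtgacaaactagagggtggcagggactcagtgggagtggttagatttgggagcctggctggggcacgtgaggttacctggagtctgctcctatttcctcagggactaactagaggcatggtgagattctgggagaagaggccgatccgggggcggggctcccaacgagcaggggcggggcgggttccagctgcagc
Axin2: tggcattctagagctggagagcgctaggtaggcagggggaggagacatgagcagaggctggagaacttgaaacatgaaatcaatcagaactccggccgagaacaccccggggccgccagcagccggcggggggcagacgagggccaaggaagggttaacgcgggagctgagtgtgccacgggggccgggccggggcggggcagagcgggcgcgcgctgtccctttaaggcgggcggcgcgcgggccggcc
In Sp5, CTTTGAT lies 104 bases before the start and CTTTGTT, on the opposite strand, 222 bases before it. In Tnfrsf19, CTTTGAT lies on the opposite strand, 202 bases before the start. Lef1 and Tcf7l2 held the other matches.

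Axin2 encodes a scaffold of the complex that degrades β-catenin, and its gene spans chr11:108917828-108950783 (mm10, 15 exons in the merged annotation). In batch 1 all 9 R&Zdel libraries lay above all 9 R&Zflox libraries, at 5.25 to 8.56 CPM against 0.794 to 4.20 CPM. Among the genes of batch 1 above the filter, 0.228% separated in this way over all conditions. Tnfrsf19 was the other of the members to do so. In batch 2 the Axin2 level was more scattered, with 3.58, 18.4 and 49.5 CPM as the lowest, median and highest of 14 R&Zdel libraries. The 16 R&Zflox libraries ran from 0 over 5.08 to 12.7 CPM. The within-group SD of log2(CPM + 1) was 0.36 for Axin2 in batch 1 and 1.12 in batch 2. For the median gene above the filter it was 0.26 and 0.82, so the wider spread of batch 2 was not particular to Axin2.

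At 1M the R&Zdel libraries held Axin2 at 16.8, 13.1, 11.3 and 27.9 CPM, and the R&Zflox libraries at 0, 2.26, 12.7 and 5.48 CPM. The third control thus lay above the third R&Zdel library. The fitted log2 fold change was 2.30 (SE 1.02), with an adjusted p of 0.59 over all genes in edgeR's quasi-likelihood test. At 7M it was 2.66 (SE 0.89, adjusted p = 0.33). Batch 1 there gave 5.25 and 5.86 CPM against 1.98 and 2.72 CPM. Batch 2 gave 49.5, 3.58 and 40.5 CPM against 7.48, 1.00 and 1.63 CPM, where a single R&Zdel library fell below the highest control. At 3M it was 0.74 (SE 1.10, adjusted p = 0.96). Batch 1 there gave 5.27 CPM, in a female, against 1.64 and 2.31 CPM, and batch 2 gave 12.4 CPM against 7.26, 5.40 and 4.94 CPM. The R&Zdel library was the highest of its batch both times, as 11.3% of genes were.

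At none of the undamaged times did a member pass the threshold of an adjusted p under 0.1 with a fold change over 2. Of all 12848 genes tested, the shares that passed at the successive times were 0.436%, 0.226% and 0.451%. With p under 0.05 before adjustment, Axin2 and Tnfrsf19 were higher at 1M and at 7M, Notum was higher at 3M, and Tcf7l1 was lower at 7M. That is 2, 1 and 3 of 8 members, where 5.88%, 4.53% and 4.37% of all genes did so. Lef1, the other member tested, is left out of these counts because it passed the filter only through the 3M controls, where it was high. DESeq2's Wald test called Tnfrsf19 at 1M and no member at 3M, and at 7M it gave an adjusted p for 2 of the 9 members, neither of them called. Summed hepatocyte markers were lower in R&Zdel livers at 1M, at 54103 to 77066 CPM against 110553 to 128991 CPM, and 1 of the 6 markers fell at each undamaged time. Summed stellate and fibroblast markers were also lower at 1M, at 140.0 to 206 CPM against 236 to 283 CPM. At 3M the hepatocyte sums were lower in R&Zdel livers too. Batch 1 held 66742 against 102361 to 127194 CPM, and batch 2 held 87535 against 102612 to 141964 CPM. At 7M they were lower in batch 1 and overlapped in batch 2, as did stellate and fibroblast sums. Macrophage sums at 7M were lower in both batches. They were 66.6 to 176 against 227 to 281 CPM and 76.9 to 125 against 128 to 166 CPM. T cell sums at 3M were higher in both batches. The part of these in the values of the members was not tested. 

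Tnfrsf19 (TROY), a receptor of the TNF family that is switched on by WNT signalling, spans chr14:60963834-61046855. Its median log2 fold change over the 8 comparisons, 2.90, was the highest of the members tested in all of them. In batch 1, the 9 R&Zdel libraries held 13.7 to 28.7 CPM and the 9 R&Zflox libraries 2.83 to 6.56 CPM. At 1M its levels were 44.6, 14, 7.32 and 11.6 CPM in R&Zdel livers, and 4.64 CPM in the second R&Zflox library, while the other three held no count. All R&Zdel libraries lay above all controls, as 2.36% of the genes did at 1M. The log2 fold change was 4.39 (SE 1.53, adjusted p = 0.33). Without that second control, which left only controls with no count, the same test gave an adjusted p of 0.000553, so a single library decided the call at 1M. At 7M the groups were separate in both batches (2.19% of genes). Batch 1 held 28.7 and 21.3 CPM against 4.77 and 4.78 CPM, and batch 2 held 69.9, 20.1 and 11.9 CPM against 0.515, 3.14 and 3.16 CPM. The joint fit gave 3.39 (SE 1.2, adjusted p = 0.36). The batches alone gave 2.38 and 3.90 for Tnfrsf19 and 1.48 and 3.21 for Axin2. Batch 1 fitted together with its CD libraries, a fit chosen after seeing the data, gave 2.39 for Tnfrsf19 (adjusted p = 0.029).

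Notum, a secreted enzyme that inactivates WNT ligands by removing their lipid, spans chr11:120653788-120661193. Its within-group SD of log2(CPM + 1) in batch 2 was 0.60, below that of Axin2. Its level in R&Zdel livers was 50.3 ± 20.8 CPM (SD, n = 9) in batch 1 and 53.4 ± 16.1 CPM (SD, n = 14) in batch 2. In R&Zflox livers it was 30.9 ± 8.17 CPM (SD, n = 9) and 28.7 ± 12.0 CPM (SD, n = 16). The genotype ranges overlapped in both batches. The largest fold change was seen at 3M, with 93.6 CPM against 26.7 and 38.4 CPM in batch 1 and 42.4 CPM against 29.1, 13.7 and 6.29 CPM in batch 2. The R&Zdel library was the highest of its batch both times, as 11.3% of genes were, and the log2 fold change was 1.34 (SE 0.43, adjusted p = 0.38). In batch 1 that library came from a female and both controls from males. In male mice alone the log2 fold change was 1.161 (adjusted p = 0.655).

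Sp5, a zinc finger factor whose gene is switched on by β-catenin, spans chr2:70474923-70477726. In batch 1 it reached 3.16 to 10.7 CPM in R&Zdel and 0.850 to 3.28 CPM in R&Zflox livers, so that the ranges overlapped between 3.16 and 3.28 CPM. In batch 2, 7 of 16 R&Zflox libraries held no count, and the R&Zdel libraries ran from 0.0575 to 15.3 CPM. At 1M every R&Zdel library lay above every control, as 2.36% of genes did, and the log2 fold change was 2.80 (SE 1.80, adjusted p = 0.84). At 7M the log2 fold change was 2.19 (SE 1.51, adjusted p = 0.75), with an overlap in batch 2. At 3M the batches went opposite ways. Batch 1 alone gave a log2 fold change of 3.00 (adjusted p = 0.47), with 7.92 CPM against 1.01 and 1.75 CPM. Batch 2 alone gave -2.12 (adjusted p = 0.97), with 0.520 CPM against 0, 0.284 and 6.61 CPM. The joint fold change was 0.08 (SE 2.31).

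Nkd1 encodes a cytoplasmic inhibitor that binds Dishevelled (chr8:88521342-88594887). Its batch 1 ranges were 2.24 to 17.2 CPM in R&Zdel and 2.24 to 6.38 CPM in R&Zflox livers, with a log2 fold change at 7M of -0.23 (SE 1.00, adjusted p = 0.98). The log2 fold change was 0.29 at 1M (SE 1.25) and 2.09 at 3M (SE 1.375, adjusted p = 0.84). At 3M every R&Zdel library lay above the controls of its batch, as 11.3% of genes did. Apcdd1 encodes a membrane inhibitor of WNT signalling. It passed no filter, and no R&Zflox library of batch 2 held a count. There 3 counts, the limit that a count of 0 allows, came to 0.0908 to 0.284 CPM. It reached 1.06 and 0.591 CPM in the CD 4d R&Zdel livers and 4.23 CPM in the fourth R&Zdel library at 1M. Every other library of the 48 held at most 0.497 CPM.

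**Figure D1:**
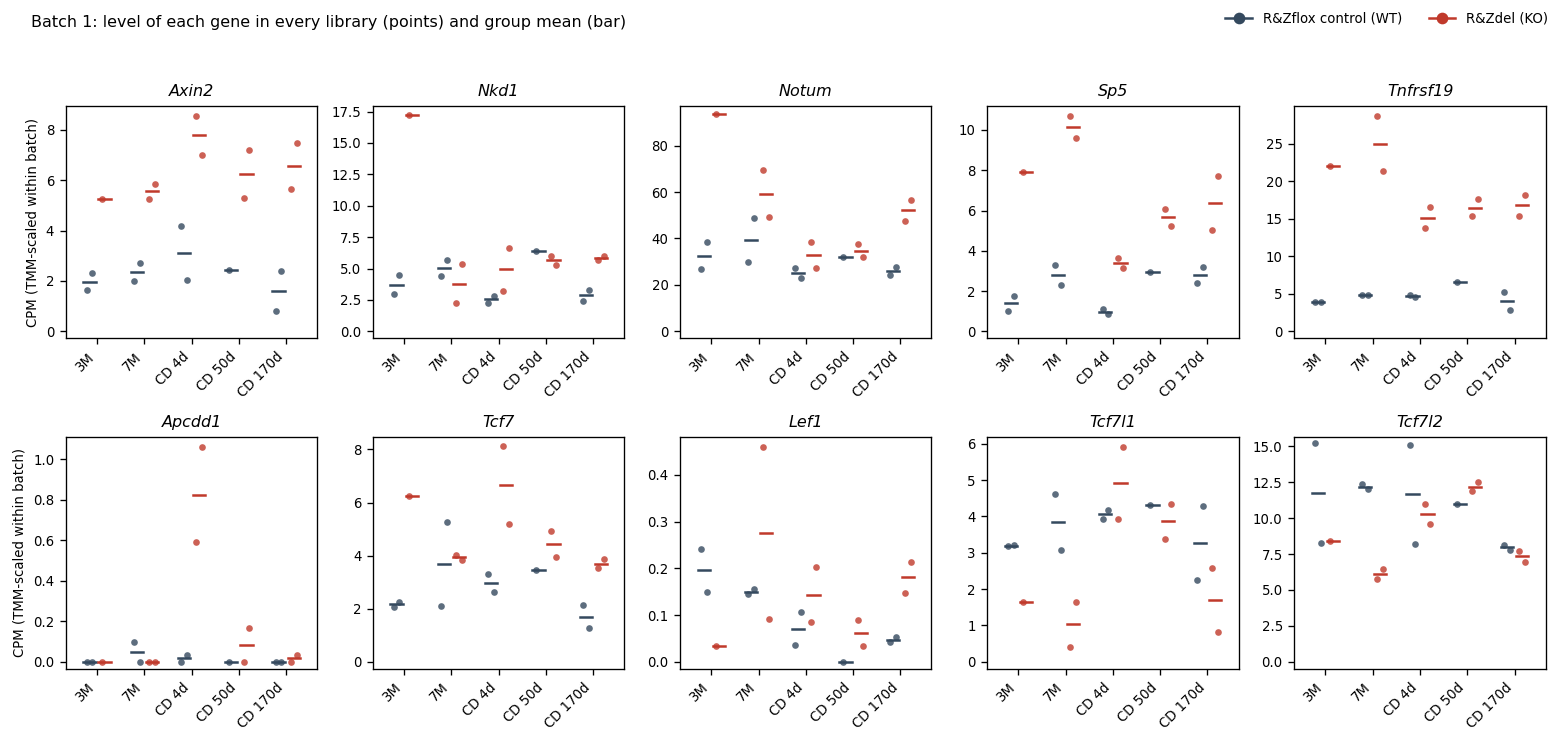
Level of each gene in every library of batch 1 with a group, in TMM-scaled CPM on linear axes that differ between panels, by condition on the x axis (points are libraries, bars are group means, R&Zdel red, R&Zflox dark). For Axin2 and Tnfrsf19 every R&Zdel point lies above every R&Zflox point, at 5.25 to 8.56 against 0.794 to 4.20 CPM and at 13.7 to 28.7 against 2.83 to 6.56 CPM.

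**Figure D2:**
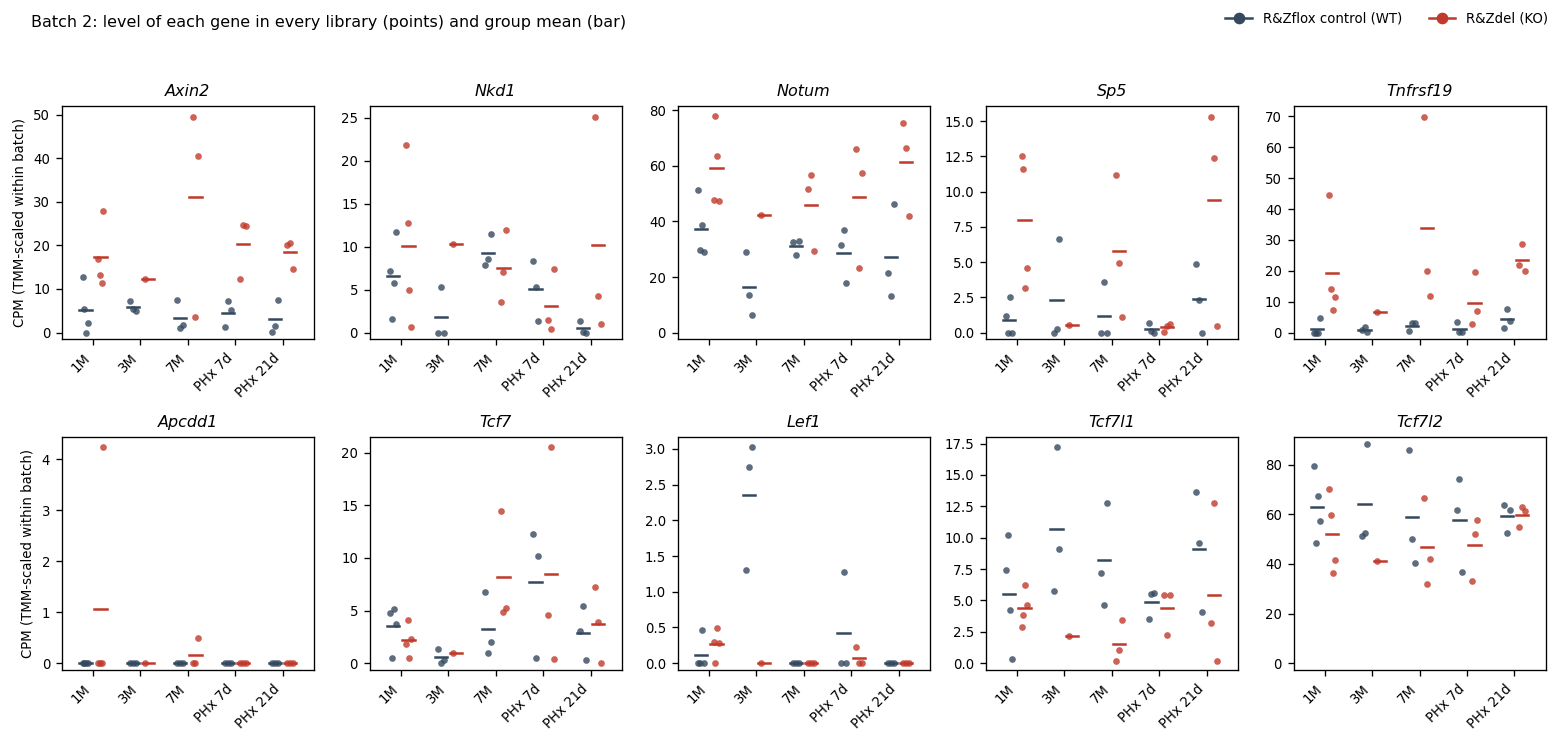
The same levels in the libraries of batch 2, in CPM on linear axes that differ between panels, for undamaged livers and livers after PHx. The R&Zdel points of Axin2 spread from 3.58 to 49.5 CPM, and the R&Zflox points of Lef1 at 3M stand at 1.31 to 3.02 CPM.

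The TCF/LEF factors, which bind DNA and recruit β-catenin or repressors, did not all move the same way. Tcf7l2 (chr19:55741797-55933659), also known as TCF4, held 5.76 to 12.5 CPM in R&Zdel and 7.81 to 15.2 CPM in R&Zflox livers of batch 1. In batch 2 it held 31.9 to 70.3 CPM and 36.7 to 88.5 CPM. The batches were counted and scaled apart, so their levels are not compared. Its log2 fold changes lay between -0.72 and 0.19, with SE of 0.27 to 0.40, and none passed the test. Tcf7l1 (chr6:72626371-72789045), a factor known mainly as a repressor, had log2 fold changes below 0 at each undamaged time. At 7M it held 0.408 and 1.66 CPM against 4.63 and 3.07 CPM in batch 1, and 0.167, 1.02 and 3.48 CPM against 7.18, 4.61 and 12.8 CPM in batch 2. All R&Zdel libraries lay below all controls of their batch, as 2% of genes did, and the fold change was -2.08 (SE 0.85, adjusted p = 0.45). At CD 4d the value had the other sign, 0.34 (SE 0.50, adjusted p = 0.66).

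Tcf7 (chr11:52246527-52283383), also known as TCF1 and abundant in T cells, held 3.52 to 8.14 CPM in R&Zdel and 1.28 to 5.25 CPM in R&Zflox livers of batch 1. The log2 fold change was 1.12 at 7M (SE 0.99, adjusted p = 0.84) and -0.85 at 1M (SE 1.13, adjusted p = 0.99). Lef1 (chr3:131110297-131224357) was near the limit of detection. In batch 1 no library exceeded 0.459 CPM, and in batch 2 21 of 30 libraries held no count. Levels above 0.5 CPM were found in 4 libraries, all R&Zflox of batch 2. The 3M controls held 1.31, 2.75 and 3.02 CPM, where the R&Zdel library held none, and the second PHx 7d control held 1.28 CPM. Batch 1 at 3M held 0.0340 CPM against 0.242 and 0.150 CPM. The fitted fold change rests on so few counts that it is not given.

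Read per kb of exon, where genes can be compared, Notum was highest in both genotypes of batch 1, at 15.4 ± 6.34 CPM per kb in R&Zdel and 9.43 ± 2.5 in R&Zflox livers (SD, n = 9 each). In controls Tcf7l2 (1.68 ± 0.46) and Tcf7l1 (1.06 ± 0.22) came next, followed by Sp5, Tnfrsf19 and Nkd1 at 1.00 ± 0.46, 0.96 ± 0.22 and 0.86 ± 0.33. The means of Tcf7l1, Sp5, Tnfrsf19 and Nkd1 differed by less than the SD of Sp5. In R&Zdel livers Tnfrsf19 (3.93 ± 0.97) and Sp5 (3.13 ± 1.24) came next, closer to each other than the SD of Sp5. Axin2 moved from 0.42 ± 0.17 to 1.17 ± 0.22 CPM per kb. Lef1 and Apcdd1 were lowest in both genotypes.

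**Figure D3:**
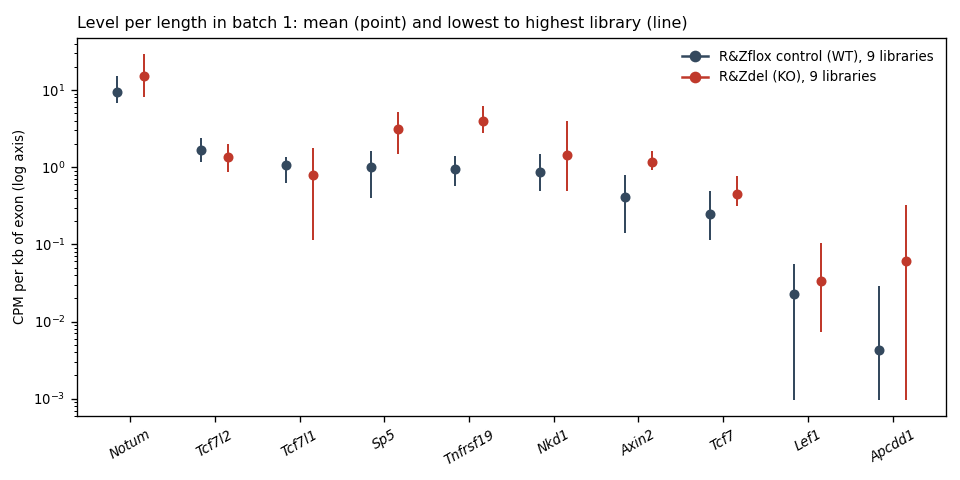
Level per kb of exon in batch 1 on a log axis, for R&Zflox (dark) and R&Zdel (red) livers, with the mean of 9 libraries as a point and the lowest to the highest library as a line (a library at 0 is drawn at 0.001). Notum stands at 9.43 and 15.4 CPM per kb, above every other member.

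In the fit of the CD livers members passed the test by adjusted p. The median biological coefficient of variation of a gene was 0.206 there, against 0.683 in the fit of undamaged livers of both batches and 0.757 in that of PHx livers. In a fit of all batch 1 livers with a group, undamaged and CD, it was 0.224. Of its 18 libraries, 11 were these CD livers. Undamaged livers of batch 1 were not fitted apart, so whether the low variation was particular to CD livers was not tested. At CD 4d, 5 of the 8 members tested rose in R&Zdel livers and none fell, while 10.3% of the 11358 genes tested rose. Sp5 held 3.66 and 3.16 CPM against 1.09 and 0.850 CPM, which came to 1.87 on the log2 scale (SE 0.34, adjusted p = 0.0088). Tnfrsf19 held 13.7 and 16.5 CPM against 4.78 and 4.54 CPM, which came to 1.76 (SE 0.28, adjusted p = 0.0053). For both genes the groups did not overlap. Tcf7 held 8.14 and 5.18 CPM against 3.29 and 2.62 CPM (1.22, SE 0.35, adjusted p = 0.040). Axin2 held 8.56 and 7.01 CPM against 4.20 and 2.02 CPM (1.38, SE 0.49, adjusted p = 0.078). Nkd1 held 3.24 and 6.67 CPM against 2.24 and 2.83 CPM (1.02, SE 0.37, adjusted p = 0.084). Leaving out any of the 4 libraries in turn kept Sp5 and Tnfrsf19 called. With the libraries of contradictory labels placed by their characteristics at CD 50d and 170d, only Tcf7 still passed at CD 4d, and Sp5 (1.862, adjusted p = 0.111) and Tnfrsf19 (1.747, adjusted p = 0.123) kept their fold changes but not their calls. Nkd1 was lost without the second R&Zdel library or either control, Axin2 without any of the 4, and Tcf7 without the first R&Zdel library or either control. Notum held 38.6 and 27.4 CPM against 27.2 and 22.9 CPM (0.45, SE 0.21, adjusted p = 0.15). On the scaled levels 6 members had every R&Zdel library above every control, as did 33.4% of all genes.

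At CD 50d, where there was a single R&Zflox library, the spread of the controls had to be taken from the other CD groups. By that fit Tnfrsf19 passed the test, at 15.3 and 17.6 CPM against 6.56 CPM (1.37, SE 0.36, adjusted p = 0.081, with 2.64% of all genes called higher). Leaving out either R&Zdel library ended that call. With the libraries of contradictory labels placed by their characteristics, the log2 fold change of Tnfrsf19 turned to -0.05388 (adjusted p = 0.993). Axin2 held 5.28 and 7.19 CPM against 2.43 CPM (1.40, SE 0.64, adjusted p = 0.23), and Sp5 held 6.09 and 5.23 CPM against 2.92 CPM (0.99, SE 0.41, adjusted p = 0.19). Notum did not separate, at 37.6 and 32 CPM against 32.1 CPM.

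At CD 170d Tnfrsf19 held 15.4 and 18.1 CPM against 5.23 and 2.83 CPM. It rose by 2.05 on the log2 scale (SE 0.29, adjusted p = 0.026), where 0.414% of all genes rose. The call was lost without the second R&Zdel library (adjusted p of 0.0145 to 0.221 over the 4 fits). It was also lost when the CD 170d livers were fitted alone (adjusted p = 0.334) and when the libraries of contradictory labels were placed by their characteristics (1.692, adjusted p = 0.797). Axin2 held 5.67 and 7.46 CPM against 0.794 and 2.41 CPM (2.06, SE 0.52, adjusted p = 0.19). Notum held 47.7 and 56.8 CPM against 24.2 and 27.6 CPM (1.01, SE 0.21, adjusted p = 0.11). Sp5 held 5.04 and 7.71 CPM against 2.42 and 3.21 CPM (1.18, SE 0.32, adjusted p = 0.24). These 3 had separate groups, as 19.2% of genes did, but did not pass. Before adjustment 6 of the 8 members passed with p under 0.05, where 4.38% of all genes did. One place in the study's sample list gives both CD 170d controls as CD 50d, and the labels were followed here. Without the second control Axin2 and Notum passed as well.

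The livers at CD 4d differed in more than the members. All 6 cholangiocyte markers (Krt7, Krt19, Epcam, Spp1, Cldn7 and Sox9, the last also on the list of targets below) rose there, and their summed level was 2733 and 4328 CPM in R&Zdel livers against 94.8 and 164 CPM in R&Zflox livers. At CD 50d the sum was 617 to 926 CPM against 113 CPM, and at CD 170d 266 to 326 CPM against 70.2 to 315 CPM. Summed T cell markers, of which 2 of 3 tested rose at CD 4d, stood at 11.9 and 21.8 CPM against 4.63 and 6.84 CPM, and summed hepatocyte markers at 48919 and 67368 CPM against 96892 and 97190 CPM. Of the other lists at CD 4d, 2 of 6 endothelial markers fell, 1 of 6 stellate and fibroblast markers rose, and no B cell, macrophage or hepatocyte marker passed, nor did the single pancreas gene tested. The part of other cell types in the rise of Tcf7 or of the feedback genes at CD 4d was not tested.

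**Figure D4:**
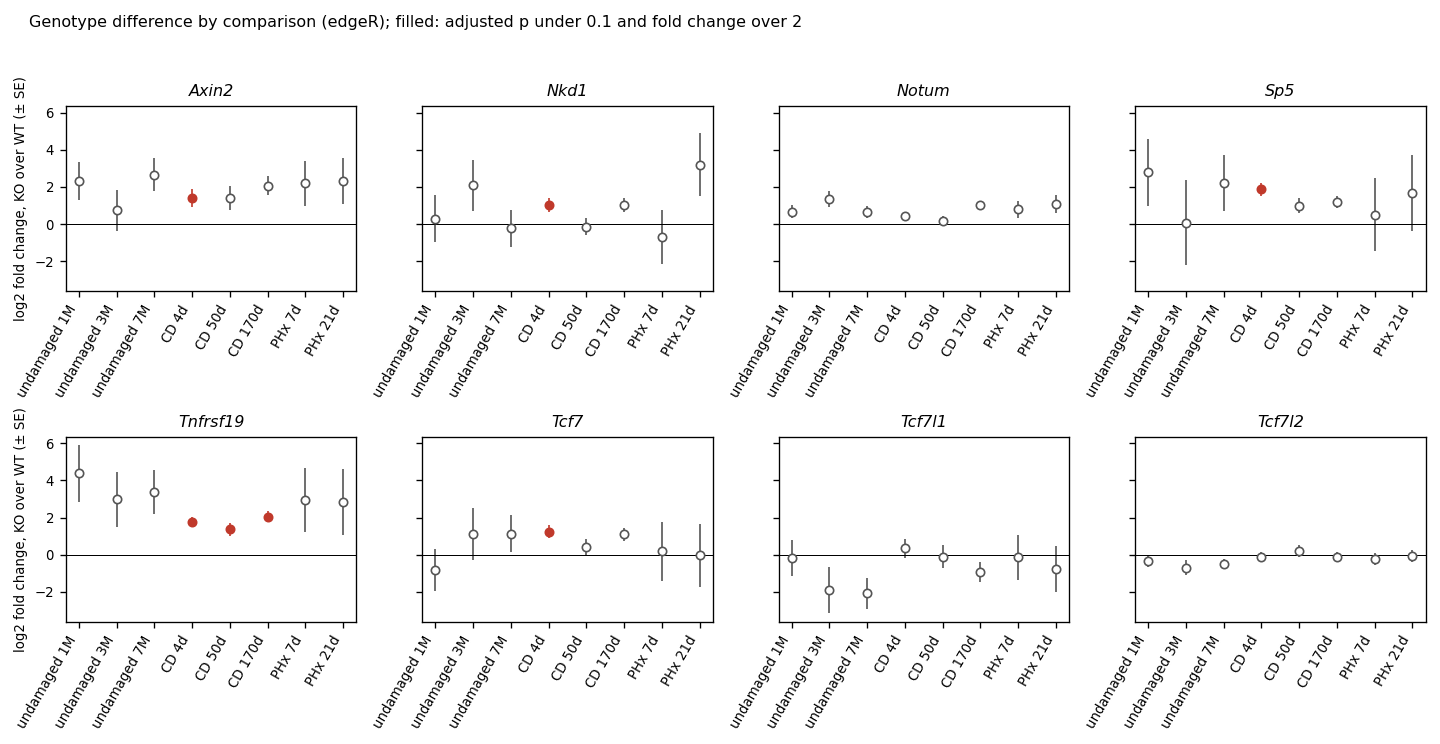
Fitted log2 fold change of R&Zdel over R&Zflox livers (points, ± SE) in the 8 comparisons for the 8 members that were tested in all of them, from edgeR, with filled red points for an adjusted p under 0.1 and a fold change over 2. Axin2, Notum, Sp5 and Tnfrsf19 lie above 0 in each comparison, and the error bars of the CD comparisons are the narrowest for Axin2, Sp5 and Tnfrsf19.

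After PHx, which removes part of the liver without CCl4, Axin2, Notum, Sp5 and Tnfrsf19 again had log2 fold changes above 0. Markers of cell types moved as well. Summed hepatocyte markers were lower in R&Zdel livers without overlap, at 58206 to 84475 against 122211 to 149563 CPM at 7 days and at 55376 to 96264 against 109746 to 133812 CPM at 21 days, and Alb fell by adjusted p at both times. Summed stellate and fibroblast markers were at 53.1 to 60.7 against 145 to 199 CPM at 7 days, where 1 of 6, Dcn, fell by adjusted p. At 21 days 3 of 6 cholangiocyte markers were lower and 1 higher at the unadjusted threshold. The part of these in the values of the members was not tested. At 7 days Axin2 held 12.3, 24.6 and 24.4 CPM in R&Zdel and 1.18, 7.25 and 5.23 CPM in R&Zflox livers. The groups were separate, as for 5.48% of genes, and the fold change was 2.19 (SE 1.23, adjusted p = 0.86). Tnfrsf19 held 2.64, 19.7 and 6.89 CPM against 3.42, 0.0642 and 0.304 CPM, with an overlap by the first R&Zdel library (2.96, SE 1.72, adjusted p = 0.87). Sp5 was almost absent, at 0.0575 to 0.591 CPM against 0 to 0.684 CPM. No member passed at an unadjusted p under 0.05 with a fold change over 2, where 3.99% of the 12773 genes did. None passed by adjusted p, where 0.274% did. DESeq2 called Axin2 and Tnfrsf19 at the unadjusted threshold.

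At 21 days Axin2 held 20.6, 14.7 and 20 CPM against 0.217, 1.59 and 7.39 CPM, again with separate groups, as for 5.36% of genes (2.31, SE 1.25, adjusted p = 0.62). Tnfrsf19 was separate as well, at 28.6, 19.9 and 21.8 CPM against 1.45, 7.67 and 3.66 CPM (2.83, SE 1.79, adjusted p = 0.67). Notum held 66.5, 41.9 and 75.6 CPM against 21.6, 13.2 and 46.4 CPM. It was the member that passed at the unadjusted threshold (1.07, SE 0.47), as 6.56% of all genes did in either direction, and its adjusted p was 0.56. No member passed by adjusted p, where 0.329% of genes did. Sp5 held 12.4, 0.483 and 15.3 CPM against 4.85, 2.33 and 0 CPM (1.68, SE 2.07, adjusted p = 0.90). The third R&Zdel library, which held the highest Notum and Nkd1 levels, came from the only female of the comparison. In male mice alone Notum did not pass (0.9958, adjusted p = 0.553). The call of Notum was lost without R&Zdel replicate 1 or 3, or without control replicate 1 or 2. Nkd1 held 4.31, 1.03 and 25.1 CPM against 1.37, 0.0613 and 0 CPM (3.21, SE 1.69, adjusted p = 0.61).

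The genotype effect was also set against damage. PHx at 7 or 21 days against undamaged 1M livers, and CD at 170 days against undamaged 7M livers, called no member in either genotype by adjusted p. Nor did R&Zflox livers at CD 4d or 50d against those at 3M of batch 1, where the matching R&Zdel contrast had a single undamaged library and was not made. In these 64 tests 4 had an unadjusted p under 0.05. Of all genes, 3% passed for CD 4d controls, 0.00793% for CD 50d controls, 0.0157% and 0.0235% for R&Zdel and R&Zflox livers at PHx 7d, and none in the others. In R&Zdel livers at 170 days, Tnfrsf19 was at 15.4 and 18.1 CPM after CD and at 28.7 and 21.3 CPM without damage (-0.57, SE 0.26, adjusted p = 0.73). No interaction between genotype and time or damage passed for a member in 83 tests (edgeR, adjusted p under 0.1), and 3 had an unadjusted p under 0.05. Of all genes, 1.5% passed for CD 50d against 4d, 6.92% for CD 170d against 4d and 0% in the others. These tests share groups and are not independent.

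Other genes of the pathway were read from lists grouped by role. Of 12 other WNT targets in liver, all tested, 4, 4 and 4 rose at 1M, 3M and 7M, 5 at CD 4d, none at CD 50d and 3 at CD 170d by adjusted p, and none fell. Of all genes, 0.218%, 0.156% and 0.249% rose at 1M, 3M and 7M, 10.3% at CD 4d, 2.64% at CD 50d and 0.414% at CD 170d. The 5 at CD 4d were Oat (2.72, SE 0.24), Slc1a2 (2.17, SE 0.33), Ccnd1 (2.02, SE 0.29), Rhbg (1.27, SE 0.36) and Sox9 (1.99, SE 0.54), the last of which is also a cholangiocyte marker. Glul (0.17, SE 0.48), Cyp2e1 (-0.07, SE 0.31), Cyp1a2 (-0.12, SE 0.42) and Lgr5 (0.24, SE 0.30) did not pass there. Their median log2 fold changes were 1.23, 1.07, 1.08, 0.66, 0.56 and 1.24, where all genes had medians between -0.09 and 0.06. Glul (glutamine synthetase), Slc1a2 (a glutamate transporter) and Cyp2e1 (a cytochrome P450 of the pericentral hepatocyte) rose at every undamaged time. At 7M Glul rose by 2.75 on the log2 scale (SE 0.34, adjusted p = 6.33e-05) and Slc1a2 by 2.16 (SE 0.27, adjusted p = 6.58e-05). After PHx, by adjusted p, 4 of the 12 rose at 7 days and 2 at 21 days, among them Glul with 1.39 (SE 0.23) and 2.51 (SE 0.24). Of all genes, 0.125% and 0.149% rose at these times. The destruction complex (8 genes, Ctnnb1, Apc, Axin1, Gsk3a, Gsk3b, Csnk1a1, Btrc and Amer1) had no call by adjusted p in any of the 8 comparisons, and 3 calls over them all at the unadjusted threshold.

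Of the 10 nuclear partners of TCF/LEF, Ctnnbip1 (ICAT, which blocks β-catenin from TCF) fell at CD 4d, 50d and 170d, with log2 fold changes of -1.495 (SE 0.27), -1.165 (SE 0.32) and -1.996 (SE 0.28). Bcl9, a coactivator, rose at CD 4d (1.18, SE 0.37), the corepressor Tle4 fell at CD 50d (-1.11, SE 0.29), and the corepressor Tle1 rose at 1M (1.53, SE 0.35). Of the 13 extracellular and cytoplasmic antagonists 3 or 4 passed the filter. Dkk3 (2.33, SE 0.53) and Frzb (1.59, SE 0.58) rose at CD 4d, and none passed elsewhere by adjusted p. All 6 cholangiocyte markers also rose at CD 4d. Of the stellate and fibroblast markers 1 of 6 rose there, and their summed levels overlapped between the genotypes. The part of these cell types in the rise of Dkk3 and Frzb was not tested.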

How the data were processed

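RNA of whole mouse livers was sequenced by Smart-Seq2 in 2 batches. The deposited values are raw counts per gene, made by the authors against mm10. The GEO records name Trim Galore, STAR 2.5.0a and featureCounts 1.5.0-p1 and 1.5.0-p3, and the batch 1 headers give unstranded counting over exons, so antisense overlaps cannot be told apart. The study's supplement names other trimming and counting versions. Counts of both batches were joined by symbol (34490 shared). Groups followed the labels, and the 5 libraries with contradictory labels were left out. The R&Zdel library of batch 1 at 3M and the female R&Zflox library at 7M were placed by their characteristics, and the others by their titles. Another 2 records were not analysed here. Libraries of the same group and batch were compared in pairs, and none were duplicates. Pairs across groups, and the 5 libraries with contradictory labels, were not compared.

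edgeR 4.0.16 (R 4.3.3, limma 3.58.1) fitted quasi-likelihood models with TMM scaling to undamaged livers (25 libraries, with sex and batch), CD livers (11) and PHx with 1M livers (20, with sex). Genes needed a CPM over 1 in 3 libraries (6 for CD). Calls needed a log2 fold change over 1 and a Benjamini-Hochberg adjusted p under 0.1, or for PHx an unadjusted p under 0.05. Each SE, also in the error bars, is the absolute log2 fold change divided by the square root of the F statistic. The scripts were tested on simulated data. DESeq2 1.42.0 was an alternative. Each library was taken as a replicate, and p-values measure only the spread between these libraries. The named genes are the members, plus the list genes that passed. The members and lists were chosen with earlier results of these data known. No pairing of same-numbered libraries was assumed, and the correlations given below cannot decide on it for the CD livers. Counting floors (3 counts) cover counting error only.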

Additional observations from a re-analysis of the deposited data

Results flagged for a closer look

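In groups of 4 to 10 libraries, 8 of 45 combinations of gene and group held a library whose gap to the nearest other library, as a share of the range, passed Dixon's 95% critical value. Chance flags about 1 in 20 groups. Groups that span both batches mix levels that were scaled apart. In R&Zflox livers at 7M these were Axin2 in replicate 2, at 7.48 CPM, and Notum in the only female of that group, at 48.9 CPM. The library of that female was placed by its characteristics, and it is not the one titled R&Z_WT_7M_5. Sp5 stood at 6.61 CPM in R&Zflox replicate 5 at 3M. In R&Zdel replicate 3 at 7M, Tnfrsf19 stood at 69.9 CPM and Tcf7 at 14.5 CPM. At 1M, Tnfrsf19 stood at 4.64 CPM in R&Zflox replicate 2, where the other controls held no count. Lef1 stood at 0.459 CPM in R&Zdel replicate 1 at 7M and at 0.469 CPM in R&Zflox replicate 1 at 1M.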

How the results depend on the processing

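Of the single-gene fold changes recomputed under the alternatives, 940 kept their direction and their side of the threshold, 53 came to pass, 32 no longer passed and 50 changed sign, all but 1 of these without a call in either fit. The sign changed on leaving out a library in 27 and under other alternatives in 23. The counts of members called were within 1.5 times of the count reported in 84 cases and outside it in 44. The cause was not tested where none is given. Counts under the alternatives stand in this section without the share of all genes that passed under the same setting. They are not read as results about the members. At 1M, 1 member passed without the filter on low counts, 1 by DESeq2 and 2 by unadjusted p. At 3M, 2 passed by unadjusted p, Notum and Lef1, of which Lef1 was left out of the counts in the main text. At 7M, 1 passed without the filter, 3 by unadjusted p and 1 in batch 1 alone with its CD libraries, a fit chosen after seeing the data. At CD 4d, 1 passed when the unassigned libraries were placed by their characteristics. At CD 50d, 2 passed without the filter, 0 with the unassigned libraries so placed and 3 when both CD 170d controls were taken as CD 50d controls. With the unassigned libraries so placed, Tnfrsf19 at CD 50d had a log2 fold change of -0.05388. At CD 170d, 4 passed without the filter, 4 by DESeq2, 4 by the likelihood ratio test and 6 by unadjusted p, while 0 passed in the compared groups alone and 0 with the unassigned libraries so placed. At PHx 7d, 2 passed without the filter, 2 by DESeq2 and 1 in the compared groups alone. At PHx 21d, 4 passed without the filter, 3 by DESeq2, 3 by the likelihood ratio test, 2 without the sex term, 0 in males alone and 0 by adjusted p.

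Leaving out each library in turn gave 0 to 1 members at 1M, 0 to 0 at 3M and 7M, 2 to 3 at CD 4d, 0 to 0 at CD 50d, 0 to 3 at CD 170d, 0 to 1 at PHx 7d and 0 to 2 at PHx 21d. Where an arm kept 1 library, it was assumed to vary like the other groups.

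With the replicate number as a block, 4 members passed at CD 4d, 0 at CD 170d, 1 at PHx 7d, 2 at PHx 21d, 0 at 1M and 0 at 7M. The deviations of same-numbered libraries correlated at 0.333 at CD 4d, -0.357 at CD 170d and -0.303 to 0.413 at 7M. They correlated at -0.0796 to -0.0472 at 1M, -0.0664 to -0.0113 at PHx 7d and -0.0251 to -0.00247 at PHx 21d. At CD 4d and 170d the 2 libraries of a group deviate as mirror images, so the value there cannot decide on pairing. No cut-off was set, and the numbers were not read as pairs. At 3M and CD 50d the groups share too few numbers for such a block.

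The log2 fold changes that changed sign were these. Single libraries left out gave -0.3471 to 0.9737 for Nkd1 and -0.7466 to 0.1787 for Tcf7l1 at 1M, -1.758 to 2.058 for Sp5 and -0.0184 to 1.979 for Tcf7 at 3M, and -1.199 to 0.9041 for Lef1 at 7M. They gave -0.5038 to 0.3619 for Tcf7l2 at CD 4d and -0.3176 to 0.05494 for Tcf7l1 at CD 50d. At PHx 7d they gave -1.636 to 0.735 for Tcf7, -0.3407 to 0.1628 for Tcf7l1 and -0.07192 to 2.514 for Sp5, and at PHx 21d -0.1583 to 0.08402 for Tcf7l2 and -0.6613 to 0.7516 for Tcf7. With the replicate number as a block, Tcf7l1 at 1M was 0.3653, Tcf7 at PHx 7d -1.03, and Sp5 and Tcf7l2 at PHx 21d -0.4146 and 0.09863. In the compared groups alone, Sp5 at 3M was -2.132 and Tcf7l2 at PHx 21d 0.06203. In male mice alone, Nkd1 and Tcf7l1 at 1M were -1.658 and 1.236, Sp5 and Tcf7 at 3M -1.776 and -0.08401, Lef1 at 7M 0.973 and Tcf7l2 at PHx 21d 0.06113. Without the sex term, Lef1 at 7M was 0.6418, and Tcf7 and Tcf7l2 at PHx 21d 0.3397 and 0.006501. In batch 2 alone, Sp5 at 3M was -2.119. With the unassigned libraries placed by their characteristics, Lef1 at 7M was 0.5648, Notum at CD 50d -0.04865 and Tcf7l2 at CD 170d 0.04558. With 1 of them taken as R&Zdel at 3M, Lef1 at 7M was 0.0331. With both CD 170d controls taken as CD 50d controls, Nkd1 was 0.5274 and Tcf7l1 0.1446.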

Other observations

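The genes whose level followed Axin2 most closely over the 30 libraries of batch 2 were Ang, Lect2, Asb3, Alad and Brms1. For this, a prior count of 3, scaled to the library total, was added to each gene, and no TMM scaling was used. Pearson's r of log2 CPM was 0.844, 0.777, 0.762, 0.757 and 0.756 among 13305 genes, and 0.401, 0.722, 0.308, 0.525 and 0.66 over the 23 libraries of batch 1. Among the members, Tnfrsf19 reached 0.498 in batch 2 and 0.853 in batch 1, and Notum 0.408 and 0.611. For Tcf7 the values were 0.00331 and 0.761. The libraries share genotype, condition and depth, so these are descriptions.

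The 5 batch 1 libraries with contradictory labels are given by title, with Axin2 and Tnfrsf19 in CPM. R&Z_KO_3M_2, whose characteristics give chronic damage, held 1.95 and 7.75. R&Z_KO_3M_3, given as 7 months, held 7.75 and 17.7. R&Z_WT_7M_5, given as damaged at 3 months, held 6.19 and 22.2. R&Z_WT_CD_50d_2, given as undamaged at 3 months, held 6.30 and 19.9. R&Z_KO_CD_50d_3, given as 7 months, held 1.45 and 5.65.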
